A study of Mus musculus with 1615 samples.

Results

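Voltage-gated potassium channels of the wall of blood vessels and gut were described here through 6 genes, Kcna5, Kcnab1, Kcnh2, Kcne4, Kcnq1 and Kcnq5. They were found in the colon count table as the rows whose Ensembl identifier maps to these symbols. Each matched 1 row, so they are 6 of the 46517 gene rows. The study made single-cell transcriptomes of adult mouse colon as part of an inventory of smooth muscle. It holds 1615 cells, each sorted singly and prepared by Smart-Seq2, a full-length cDNA method without molecular identifiers. The cells came from 11 mice of 5 reporter lines and lay on 13 plates.

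The muscle and pericyte cells compared here all came from 3 mice of the line ACTA2GFP:CSPG4dsRED, which carries a green reporter named after Acta2 and a red reporter named after Cspg4 together. They are the female 20GG79:1 with 22.2% of all cells, the male 20GG79:6 with 14.98% and the female 20GG95:3, spread over 2 plates, with 31.3%. Single reporters marked the other 8 mice, all male, which belonged to the lines PDGFRbGFP, PDGFRaH2bGFP, CSPG4dsRED and ACTA2GFP and gave 0.310 to 12.3% of all cells each. Ages were labelled 8 to 30 weeks for every mouse, while the design text speaks of males only. No mouse was treated. Cells were freed with a skeletal muscle dissociation kit with added collagenase, the protocol names the heart where the tissue label says colon, and no gate of the sort is stated in the labels. The sizes of the classes below therefore follow from sort and dissociation and are not proportions of the tissue.

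Voltage-gated potassium channels open when the membrane is depolarised. The outflow of potassium then brings the membrane back towards rest, which closes voltage-gated calcium channels and limits contraction of smooth muscle. Kcna5 and Kcnh2 encode pore subunits, the first of the Shaker family with a delayed rectifier current, the second of the ERG family. Kcnq1 and Kcnq5 encode pores of the KCNQ family, whose currents hold the resting potential of smooth muscle and neurons. Kcnab1 encodes a cytoplasmic beta subunit that binds Shaker-type pores, and Kcne4 a single-span accessory subunit known from expression systems to suppress channels built from Kcnq1.

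Cells were put into 9 classes with marker genes fixed for each, in clusters built without the 6 genes and without any other potassium channel gene. The classes at issue are 94 vascular smooth muscle-like cells, pericyte-like cells, which were 11.2% of all cells, with 51 in 20GG79:1, 28 in 20GG79:6 and the rest in 20GG95:3, and 552 visceral smooth muscle-like cells, called vascular cells, pericytes and visceral cells from here on. Pln, Rgs5 and Actg2 were highest in the class they name, while some other markers were not. Pln, a regulator of the calcium store, averaged 988 ± 39.8 counts per 1000000 gene counts (CPM) in vascular cells (SD, n = 2 mice), 155.8 ± 85.9 in pericytes and 1.46 ± 1.01 in visceral cells (SD, n = 3 mice each). Rgs5, a pericyte marker, averaged 1564 ± 548 CPM in vascular cells, 4006 ± 955 in pericytes and 477.8 ± 151.6 in visceral cells. Actg2, an actin of visceral muscle, averaged 668 ± 41.1 CPM in vascular cells, 271.5 ± 303.5 in pericytes and 2578 ± 644 in visceral cells. Heyl, on the vascular list, averaged 871 ± 168.6 CPM in vascular cells and 1098 ± 261.3 in pericytes. Smtn, on the visceral list, averaged 1422 ± 289.2 CPM in vascular cells and 1316 ± 137.5 in visceral cells. The names rest on the mean over each list and not on single markers. All 84 vascular cells of 20GG95:3 and the 10 of 20GG79:1 came from females, and the male gave none, so sex could not be compared in this class. Summed gene counts per mouse and class ran from 2498528 in the vascular cells of 20GG79:1 to 53598016 in the visceral cells of 20GG95:3. Because reads of 1 molecule cannot be told apart from reads of several, the exact intervals given below cover counting error only.

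The 6 genes lie on 5 chromosomes in GENCODE M21, build GRCm38. Kcna5 (ENSMUSG00000045534) lies on chromosome 6 from 126532551 to 126535412 on the minus strand, in 1 exon. Kcnab1 (ENSMUSG00000027827) lies on chromosome 3 from 65109384 to 65378223 on the plus strand. Kcnh2 (ENSMUSG00000038319) lies on chromosome 5 from 24319589 to 24351604 on the minus strand. Kcne4 (ENSMUSG00000047330) lies on chromosome 1 from 78816758 to 78820028 on the plus strand. Kcnq5 (ENSMUSG00000028033) lies on the same chromosome, from 21398403 to 21961942 on the minus strand. Kcnq1 (ENSMUSG00000009545) lies on chromosome 7 from 143106362 to 143427042 on the plus strand. Exons of antisense transcripts share bases with 3 of them, namely 2.34% of the exon bases of Kcnab1, 3.08% of those of Kcnq5 and 2.96% of those of Kcnq1, the last with Kcnq1ot1. Whether counting used strand is not stated, and Smart-Seq2 libraries do not mark it.

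Promoters are shown for the 4 genes that differed between classes below, to let their sequence be read beside their levels. Each is 300 bases of RefSeq, build GRCm38.p6, written 5′ to 3′ on the strand of the gene, from 250 bases before the annotated start to 50 after it. Capitals mark GTGGGAA or its reverse complement TTCCCAC, the core that the Notch partner RBPJ binds. The Kcna5 entry is chr6:126535506-126535805 on the minus strand. The Kcnab1 entry shown is chr3:65108764-65109063 on the plus strand, the second of 3 in the table and the only one of the 3 with the heptamer. The bases just after the start of this Kcnab1 entry and of the Kcna5 entry were in no GENCODE M21 transcript of the gene, whereas those of the third Kcnab1 entry, of the Kcnh2 entry and of the Kcne4 entry were in one. The Kcnh2 entry is chr5:24329542-24329841 on the minus strand, which lies inside the gene model given above and not at its outer end, and the Kcne4 entry is chr1:78816661-78816960 on the plus strand.
Kcna5: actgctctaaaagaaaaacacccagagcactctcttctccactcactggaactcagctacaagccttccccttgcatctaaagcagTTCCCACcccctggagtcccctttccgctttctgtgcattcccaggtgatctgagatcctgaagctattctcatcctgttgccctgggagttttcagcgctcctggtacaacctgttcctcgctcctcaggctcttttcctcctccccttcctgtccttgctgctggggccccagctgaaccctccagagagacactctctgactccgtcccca
Kcnab1: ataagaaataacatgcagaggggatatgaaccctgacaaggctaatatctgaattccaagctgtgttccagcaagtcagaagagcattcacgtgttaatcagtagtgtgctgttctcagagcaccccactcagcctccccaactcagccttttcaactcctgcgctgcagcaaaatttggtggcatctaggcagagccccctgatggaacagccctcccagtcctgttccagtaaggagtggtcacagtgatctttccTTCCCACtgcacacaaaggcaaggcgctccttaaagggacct
Kcnh2: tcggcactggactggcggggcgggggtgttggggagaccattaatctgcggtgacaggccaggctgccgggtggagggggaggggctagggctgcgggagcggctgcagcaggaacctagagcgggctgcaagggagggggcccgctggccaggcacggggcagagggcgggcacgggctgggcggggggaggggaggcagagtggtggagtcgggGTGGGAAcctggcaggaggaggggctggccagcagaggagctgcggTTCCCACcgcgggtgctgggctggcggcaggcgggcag
Kcne4: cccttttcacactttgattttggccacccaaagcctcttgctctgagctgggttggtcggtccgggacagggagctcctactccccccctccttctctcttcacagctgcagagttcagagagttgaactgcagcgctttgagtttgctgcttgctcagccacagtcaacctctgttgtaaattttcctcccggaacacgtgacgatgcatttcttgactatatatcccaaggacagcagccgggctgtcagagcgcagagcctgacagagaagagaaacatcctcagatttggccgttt

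The heptamer was found 1 time in the Kcna5 window, 1 time in the Kcnab1 window shown and 2 times in the Kcnh2 window. It was not in the Kcne4 window. Of all 32851 promoter entries of this length, 6.38% hold it on either strand. The Kcnab1 window shown was the only one of 3 entries of that gene with the heptamer, so its match cannot be set against that share. The CArG box, the site of serum response factor, was in none of these 4 windows and is in 1.63% of all entries. TATAAA on either strand is in 13.6% of all entries and was in none of the 4, while another Kcnab1 entry, chr3:65187853-65188152, holds its reverse complement. A match is a string of letters and no evidence of binding.

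Kcna5 and Kcnab1, the Shaker-type pore and the beta subunit that binds such pores, were high in vascular cells, lower in pericytes and close to absent in visceral cells. Kcna5 stood at 375.4 CPM in vascular cells of 20GG79:1 and 347.9 in those of 20GG95:3. In pericytes it stood at 52.6, 100.1 and 38.5 CPM in 20GG79:1, 20GG79:6 and 20GG95:3, and in visceral cells at 0.287, 0.752 and 0.205 CPM. The 3 classes did not overlap, and the visceral values rest on 14, 15 and 11 counts. Classes of 2 or 3 mice part easily, and the share of all genes that part so was not counted, here or for the genes below. The fitted log2 fold change was 10.52 ± 0.58 for vascular over visceral cells (SE, edgeR quasi-likelihood test, adjusted p = 0.000262). For pericytes over visceral cells it was 7.25 ± 0.49 (edgeR, adjusted p = 0.00119). For vascular cells over pericytes it was 3.27 ± 0.45, which missed the threshold of 0.05 (edgeR, adjusted p = 0.0535) although vascular cells were higher in both mice that had the class. That call was made under 4 of 16 alternative settings, whose adjusted p ran from 1.06e-06 to 0.368.

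Kcnab1 followed the same order. It stood at 414.2 CPM in vascular cells of 20GG79:1 and 384.7 in those of 20GG95:3. Pericytes of 20GG79:1, 20GG79:6 and 20GG95:3 had 23.3, 121.8 and 24.2 CPM, and visceral cells had 0.267, 1.86 and 0.280 CPM. The male 20GG79:6 was highest in both of the classes it had, and no values of the 3 classes overlapped. The log2 fold change was 10.51 ± 0.55 for vascular over visceral cells (edgeR, adjusted p = 0.000262) and 6.19 ± 0.44 for pericytes over visceral cells (edgeR, adjusted p = 0.00146). For vascular cells over pericytes it was 4.32 ± 0.44 (edgeR, adjusted p = 0.0228). The last call was lost without the mouse as a block, at 2.97 (edgeR, adjusted p = 0.336), and without mouse 20GG79:1, at 4.35 (edgeR, adjusted p = 0.157). It was lost without clusters that held cells of 1 mouse, at 5.45 (edgeR, adjusted p = 0.159). It was also lost without either plate of 20GG95:3, at 3.69 without plate colon_053s (edgeR, adjusted p = 0.0777) and 5.95 without plate colon_506s (edgeR, adjusted p = 0.146), and the range over all alternatives was 6.08e-12 to 0.336.

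**Figure D1:**
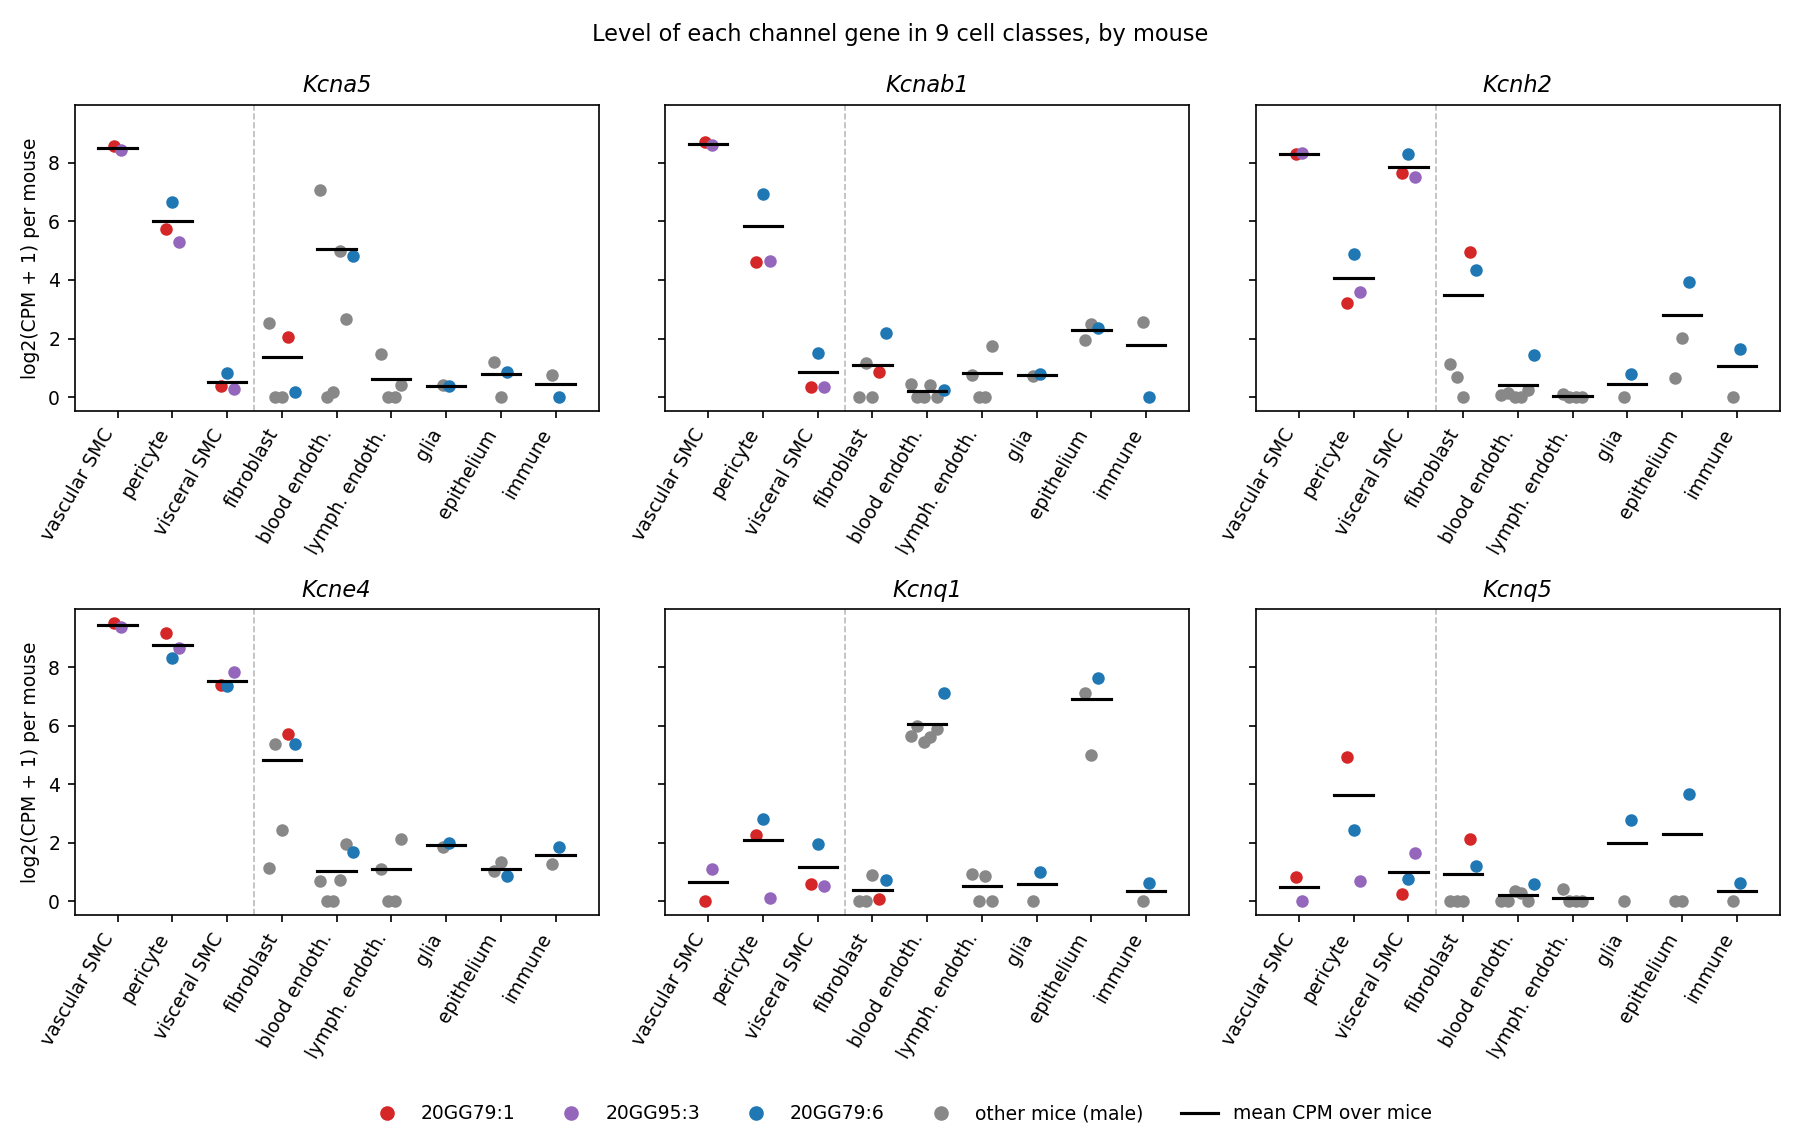
Level of the 6 genes as log2(CPM + 1) of counts summed per mouse (vertical axis) in 9 cell classes (horizontal axis), 1 point per mouse with at least 5 cells of the class, black lines at the mean CPM over mice. Kcna5 and Kcnab1 points of vascular cells lie at 347.9 to 414.2 CPM and those of visceral cells at 0.205 to 1.86 CPM, Kcnh2 is high in both muscle classes, and Kcnq1 is high in epithelium and blood endothelium.

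Kcnh2 had another distribution. It was high in both muscle classes and low in pericytes. Vascular cells had 313.4 CPM in 20GG79:1 and 317.5 in 20GG95:3. Pericytes had 8.33, 28.3 and 11.1 CPM in 20GG79:1, 20GG79:6 and 20GG95:3, and visceral cells had 198.2, 317.2 and 182.4 CPM. The male's visceral value lay within the range of the vascular cells, while pericytes overlapped neither muscle class. The log2 fold change was 5.07 ± 0.47 for vascular cells over pericytes (edgeR, adjusted p = 0.0201). For pericytes over visceral cells it was -4.12 ± 0.41 (edgeR, adjusted p = 0.0047). For vascular over visceral cells it was 0.95 ± 0.41 and did not pass (edgeR, adjusted p = 0.384), nor did it under any of 16 alternatives. The difference of vascular cells from pericytes missed the threshold without 20GG79:1, at 4.95 (edgeR, adjusted p = 0.0738), and without clusters that held cells of 1 mouse, at 5.78 (edgeR, adjusted p = 0.0779), within a range of 1.01e-13 to 0.0779 over alternatives.

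Kcne4, the accessory subunit, was present in all 3 classes. Vascular cells had 722.0 CPM in 20GG79:1 and 652.5 in 20GG95:3. Pericytes had 569.0, 318.4 and 402.6 CPM in 20GG79:1, 20GG79:6 and 20GG95:3, and visceral cells had 165.1, 162.3 and 226.2 CPM. No values of the 3 classes overlapped, in 2 or 3 mice a class. The log2 fold change of vascular over visceral cells was 1.85 ± 0.32 (edgeR, adjusted p = 0.0318). Those of vascular cells over pericytes, 0.75 ± 0.32 (edgeR, adjusted p = 0.539), and of pericytes over visceral cells, 1.11 ± 0.28 (edgeR, adjusted p = 0.137), did not pass. The single call was lost without each mouse in turn (edgeR, adjusted p = 0.0608 to 0.298), without plate colon_053s, at 1.45 (edgeR, adjusted p = 0.167), and without clusters of 1 mouse, at 1.79 (edgeR, adjusted p = 0.0604), with 9.56e-05 the lowest among alternatives.

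Kcnq1 and Kcnq5, the KCNQ pores among the genes described here, were near the floor in muscle. They do not stand for the whole KCNQ family in these cells. Kcnq1 had 0 CPM in vascular cells of 20GG79:1, where 3 counts would be 1.20 CPM, and 1.15 CPM from 17 counts in those of 20GG95:3. It had 3.77, 6.02 and 0.0872 CPM in pericytes of 20GG79:1, 20GG79:6 and 20GG95:3, and 0.492, 2.86 and 0.429 CPM in visceral cells. Its antisense partner Kcnq1ot1 averaged 136.9 ± 96.2 CPM in vascular cells (SD, n = 2 mice), 219.3 ± 146.8 in pericytes and 86.4 ± 17.3 in visceral cells (SD, n = 3 mice each). Without strand, part of these few Kcnq1 counts cannot be told apart from Kcnq1ot1. Kcnq5 had 2 counts in 20GG79:1 and 0 in 20GG95:3 in vascular cells. Pericytes had 29.4, 4.38 and 0.611 CPM of Kcnq5 in 20GG79:1, 20GG79:6 and 20GG95:3, and visceral cells had 0.185, 0.702 and 2.11 CPM. The pericyte and visceral values overlapped for both genes. None of the 3 comparisons passed for Kcnq1 (edgeR, adjusted p = 0.852 to 0.957) or Kcnq5 (edgeR, adjusted p = 0.573 to 0.875), and the direction of Kcnq1 in vascular over visceral cells turned without 20GG95:3, to -6.61 on the log2 scale.

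In all, 3 of the 6 genes were called higher in vascular than in visceral cells, where 0.903% of the 15400 genes tested were called higher, 0.61% lower and 1.51% in either direction. In vascular cells against pericytes 2 of 6 were called higher, against 0.0519% of genes tested in that direction and 0.104% in either. In pericytes against visceral cells 2 of 6 were called higher, against 0.669%, and 1 lower, against 0.468%, with 1.14% of genes called in either direction. The median log2 fold change of the 6 was 1.40 for vascular over visceral cells, beside -0.43 over all genes tested. It was 2.01 for vascular cells over pericytes, beside -0.32, and 1.55 for pericytes over visceral cells, beside -0.14. All 6 passed the filter on low counts. The 6 genes and the comparisons were chosen with earlier results of these data known, so these shares and medians are no test of the 6 as a group.

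**Figure D2:**
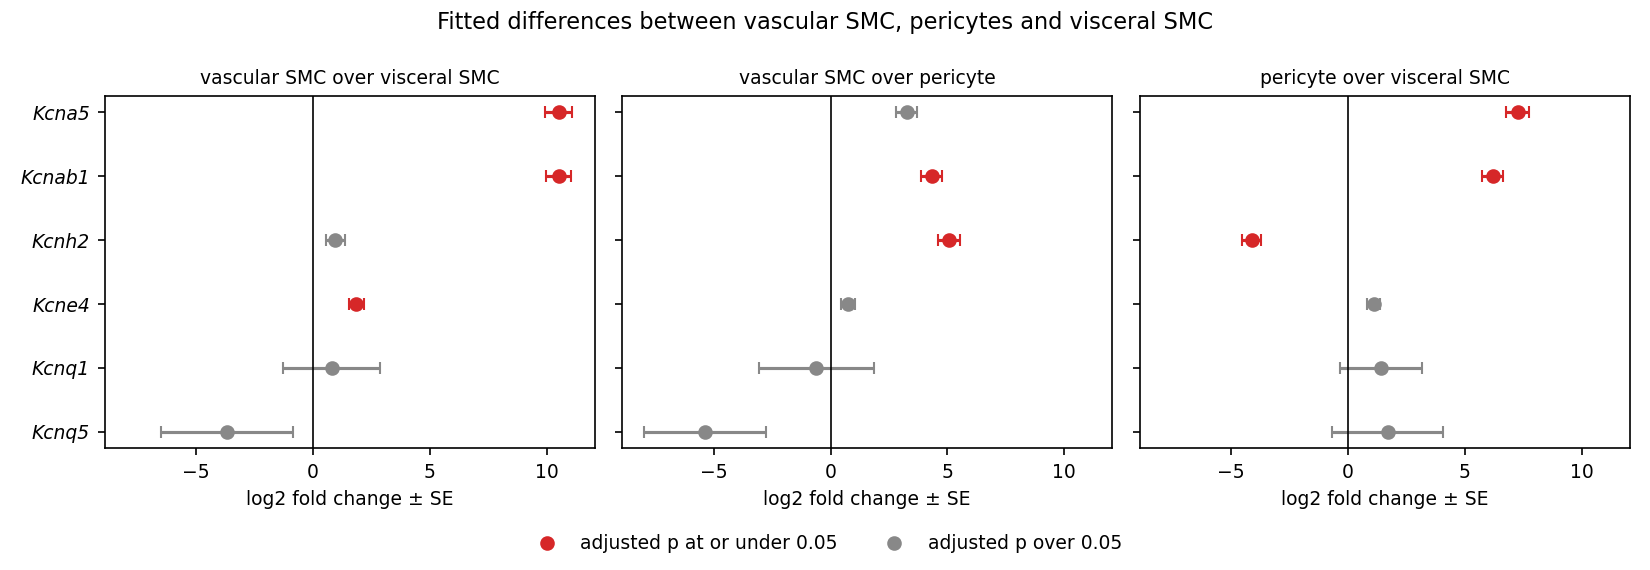
Fitted log2 fold changes (horizontal axis) with their SE for the 6 genes (vertical axis) in 3 comparisons of counts summed per mouse and class, red where the edgeR adjusted p was at or under 0.05. Kcna5 and Kcnab1 lie near 10.5 for vascular over visceral cells, and Kcnh2 lies at -4.12 for pericytes over visceral cells.

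Early response and heat shock genes moved with the vascular class. The 12 genes of that list, all detected in every sum, added up to 24836 and 29788 CPM in vascular cells, 6250 to 9539 CPM in pericytes and 7700 to 9235 CPM in visceral cells. Against visceral cells edgeR called 6 of the 12 higher in vascular cells, beside 0.903% of all genes tested. Against pericytes it called 4 of 12 higher, beside 0.0519%. DESeq2 called 8 and 9 of the 12 in these comparisons, and its larger shares over all genes are given further below. None was called between pericytes and visceral cells by edgeR or DESeq2, and 5 had an unadjusted p under 0.05 by edgeR. The part of this list in the channel results was not tested. Blood endothelium markers, 7 genes, added up to 11.6 and 32.99 CPM in vascular cells, 126.1 to 264.6 CPM in pericytes and 6.995 to 86.4 CPM in visceral cells, against 9109 to 16186 CPM in blood endothelium itself. Of these 7, Cdh5, Kdr, Cldn5 and Emcn were at 0 in vascular cells of 20GG79:1 and Cdh5 was at 0 in pericytes of 20GG79:1. Fibroblast markers, 7 genes, added up to 2552 and 2702 CPM in vascular cells, 3527 to 4795 CPM in pericytes and 4947 to 6632 CPM in visceral cells, against 14947 to 20957 CPM in fibroblasts. Markers of interstitial cells of Cajal, the 3 genes Kit, Etv1 and Ano1, added up to 1037 and 879.5 CPM in vascular cells and 682.03 to 1182 CPM in pericytes, against 119.8 to 403.9 CPM in visceral cells. Of these 3, Kit was at 0 in vascular cells of both mice and in pericytes and visceral cells of 20GG79:1. The part of the fibroblast and Cajal cell markers in the channel results was not tested.

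Levels of different genes were set side by side per kilobase of exon, taken over all annotated exons of a gene together. Kcne4 led in vascular cells with 258.7 ± 18.5 CPM per kb (SD, n = 2 mice). Kcna5 followed with 126.4 ± 6.81 CPM per kb, Kcnh2 with 65.1 ± 0.604 and Kcnab1 with 46.5 ± 2.43. These 4 levels were farther apart than their SD, but their order depends on the exon length used. That length was 8593 bases for Kcnab1 and 2862 for Kcna5. In CPM alone Kcnab1, with 399.5 ± 20.9, was not below Kcna5, with 361.6 ± 19.5. In pericytes the level of Kcne4 was 161.8 ± 48.001 CPM per kb and that of Kcna5 22.3 ± 11.3 (SD, n = 3 mice). Kcnab1 with 6.57 ± 6.59, Kcnh2 with 3.28 ± 2.23 and Kcnq5 with 1.49 ± 2.04 CPM per kb could not be ordered within their spread. In visceral cells Kcne4 stood at 69.5 ± 13.6 and Kcnh2 at 48.01 ± 15.2 CPM per kb, which are closer than the sum of their SDs.

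The share of cells with at least 1 count fell in the same order for Kcna5 and Kcnab1. Kcna5 had a count in 84.04% of vascular cells (exact interval 75.05 to 90.8%), 33.7% of pericytes (26.9 to 41.1%) and 4.71% of visceral cells (3.10 to 6.83%). Kcnab1 had a count in 68.1% of vascular cells (57.7 to 77.3%), 23.8% of pericytes (17.8 to 30.6%) and 5.43% of visceral cells (3.70 to 7.67%). In blood endothelium, where the summed level of Kcnab1 was 0.145 ± 0.172 CPM (SD, n = 6 mice), 4.71% of cells had a Kcnab1 count. Kcna5 had a count in 18 of 75 lymphatic endothelial cells, where its summed level was 0.529 ± 0.850 CPM (SD, n = 4 mice). Of those 18 cells 17 came from the PDGFRbGFP male with the most cells, which gave no mural cells, so that share sets no background for the visceral cells. Kcnh2 had a count in 64.9% of vascular cells, 37.02% of pericytes and 63.6% of visceral cells, against 5.26% in blood endothelium of all mice. Kcne4 had a count in 79.8% of vascular cells, 73.5% of pericytes and 62.9% of visceral cells, against 18.6% in blood endothelium of all mice. The male 20GG79:6 was the one mouse with at least 5 cells of both blood endothelium and a mural class. In it Kcnh2 had a count in 60.7% of 28 pericytes and 79.5% of 73 visceral cells, against 33.3% of 36 blood endothelial cells. Kcne4 had a count in 64.3% of its pericytes and 75.3% of its visceral cells, against 41.7% of its blood endothelial cells. The summed levels in that endothelium were 1.72 CPM of Kcnh2 and 2.23 CPM of Kcne4. Kcnab1 had a count in 9.59% of visceral cells of 20GG79:6, against 2.78% of its blood endothelial cells. Median depth was 174720 gene counts in vascular cells, 120151 in pericytes, 185070 in visceral cells and 237402 in blood endothelium and 205480 in lymphatic endothelium. When each cell was thinned to 50000 counts, the Kcna5 shares became 75.5% in vascular cells, 22.9% in pericytes and 1.81% in visceral cells, beside 4.0% in lymphatic endothelium. The thinned Kcnab1 shares were 64.9% in vascular cells, 12.3% in pericytes and 1.63% in visceral cells. The thinned Kcnh2 shares were 53.2% in vascular cells, 17.3% in pericytes and 46.1% in visceral cells, and those of Kcne4 69.1% in vascular cells, 59.2% in pericytes and 40.8% in visceral cells. Thinning left out 2 pericytes and 1 visceral cell that were too shallow.

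**Figure D3:**
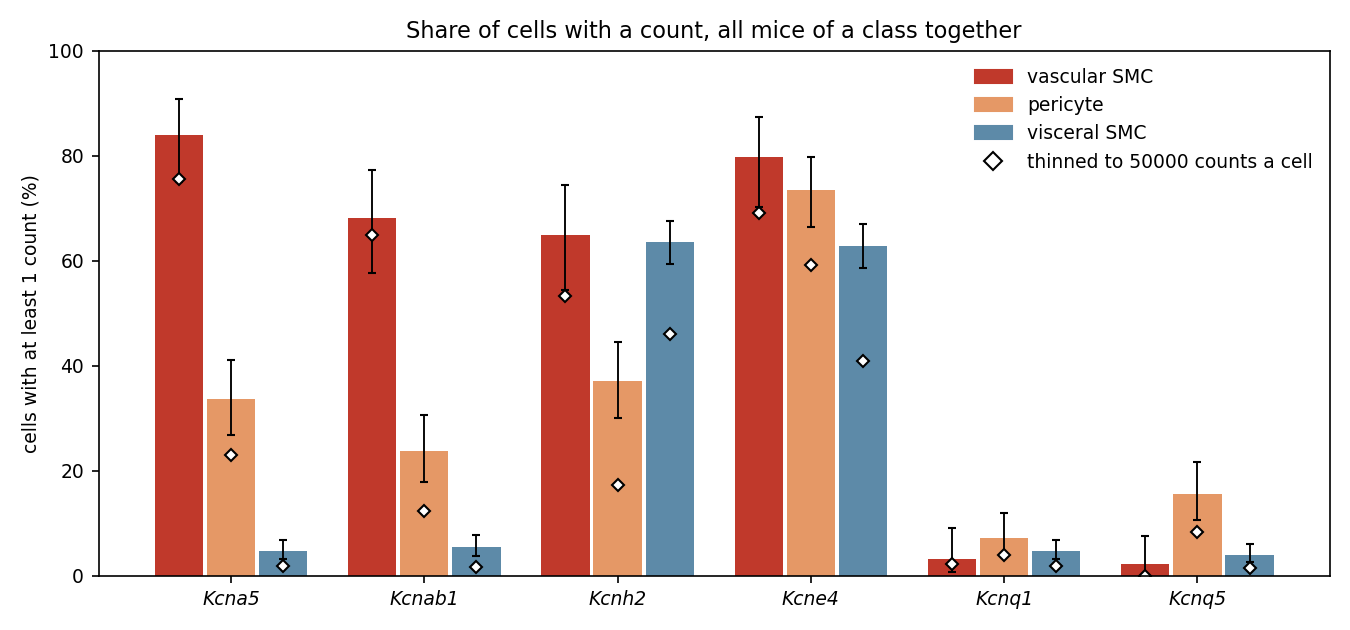
Share of cells with at least 1 count of each gene in percent (vertical axis), bars for vascular cells, pericytes and visceral cells with exact 95% intervals, diamonds for the share after thinning to 50000 counts a cell. Kcna5 runs at 84.04% in vascular cells, 33.7% in pericytes and 4.71% in visceral cells, while Kcnh2 is nearly level between vascular and visceral cells at 64.9% and 63.6%.

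The pericyte levels of Kcna5, Kcnab1 and Kcnh2 came from few cells. A level of at least 100 CPM of Kcna5 was reached by 63 of 94 vascular cells, 17 pericytes and 1 of 552 visceral cells. The 17 pericytes, 9.39% of the class, held 92.9% of its Kcna5 counts. For Kcnab1 that level was reached by 53 vascular cells, 9 pericytes and 1 visceral cell, and the 9 pericytes held 95.7% of the class's counts. A single pericyte of 20GG79:1 held 91.7% of that mouse's pericyte Kcnab1 counts, and single cells held 61.2% in 20GG79:6 and 59.2% in 20GG95:3. For Kcnh2 it was reached by 41 vascular cells, 5 pericytes and 29.3% of visceral cells, and the 5 pericytes held 79.9% of the class's counts. The median pericyte had 0 CPM of each of these 3 genes, whereas the median vascular cell had 277.1 CPM of Kcna5, 257.97 of Kcnab1 and 11.6 of Kcnh2. Kcne4 was spread more widely, with 59 vascular cells, 57 pericytes and 24.6% of visceral cells at or over 100 CPM.

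Vascular markers were found in many of those pericytes. The 7 markers on the vascular and not on the pericyte list are Acta2, Myh11, Tagln, Pln, Heyl, Mustn1 and Sncg. All but Heyl averaged less in pericytes than in vascular cells. Heyl averaged 1098 ± 261.3 CPM in pericytes (SD, n = 3 mice) and 871 ± 168.6 in vascular cells (SD, n = 2 mice), so it does not part these classes. A cell was counted as holding vascular markers where at least 2 of the 7 reached the median of vascular cells. This held for 85 of 94 vascular cells. It held for 10 of the 17 pericytes high in Kcna5 and for 31.1% of the others. It held for 7 of the 9 pericytes high in Kcnab1 and for 31.4% of the others, and for 5 of the 5 high in Kcnh2 and 31.8% of the others. For Kcne4 it held for 20 of 57 high pericytes and 33.1% of the others. These counts are given without a test, and the part of vascular markers in the pericyte levels was not tested beyond leaving such cells out. Without pericytes that held such markers, the log2 fold change of Kcnab1 in pericytes over visceral cells was 3.57 and lost its call (edgeR, adjusted p = 0.0655, the highest of a range from 4.89e-32), while those of Kcna5 and Kcnh2 kept theirs. The mean pericyte level of Kcnh2 was then 2.98 CPM, against 15.9 ± 10.8 CPM with all pericytes (SD, n = 3 mice).

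**Figure D4:**
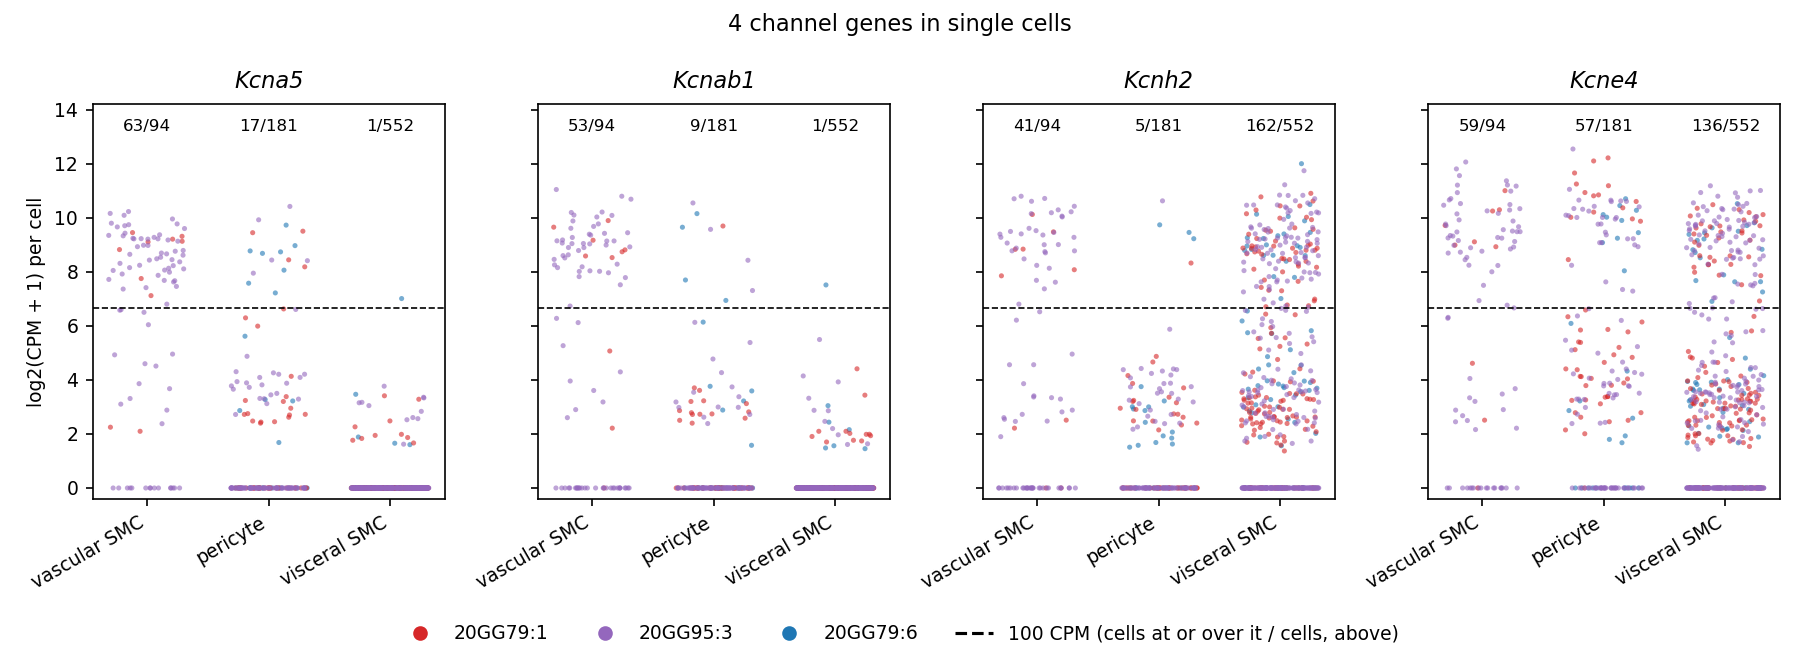
Level of 4 genes as log2(CPM + 1) in each cell (vertical axis) of the vascular, pericyte and visceral classes (horizontal axis), coloured by mouse, with a dashed line at 100 CPM and the number of cells at or over it above each column. At or over the line lie 63 of 94 vascular cells and 17 pericytes for Kcna5, 53 vascular cells and 9 pericytes for Kcnab1, and 41 vascular cells and 5 pericytes for Kcnh2.

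Counts of both Kcna5 and Kcnab1 were found in 62.8% of vascular cells. With Kcna5 in 84.04% and Kcnab1 in 68.1% of these cells, many would hold both by these shares alone. Whether the 2 genes went together beyond that was not tested. Of the 94 vascular cells, 59 had a count of both, 20 of Kcna5 alone, 5 of Kcnab1 alone and 10 of neither. At the level of 100 CPM, 39 reached it for both, 24 for Kcna5 alone and 14 for Kcnab1 alone. Counts of Kcna5, Kcnab1 and Kcnh2 together were found in 40 of 94 vascular cells, 9 pericytes and 1 of 552 visceral cells. Kcnh2 and Kcne4 were found together in 55.3% of vascular cells, 27.1% of pericytes and 44.02% of visceral cells. Missing counts in single cells also follow from depth, so the numbers for a single gene are not counts of cells that lack the other.

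The 2 plates of 20GG95:3 gave different pericyte levels. Kcna5 in pericytes was 2.33 CPM from 10 counts in 34 cells on plate colon_053s and 60.1 CPM in 68 cells on plate colon_506s. Kcnab1 was 1.17 CPM from 5 counts on plate colon_053s and 37.9 CPM on plate colon_506s. Kcne4 ran the other way, with 645 CPM on plate colon_053s and 257.5 CPM on plate colon_506s. In vascular cells Kcna5 was 387.05 CPM on plate colon_053s and 291.6 CPM on plate colon_506s, and Kcne4 was 899 CPM on plate colon_053s and 299.01 CPM on plate colon_506s. The visceral values of Kcnh2 were closer, at 194.5 CPM on plate colon_053s and 170.99 CPM on plate colon_506s. All 5 of that mouse's pericytes with at least 100 CPM of Kcna5 lay on plate colon_506s in 1 cluster.

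The clusters that made up the pericytes differed likewise. Cluster 11, 95 cells of all 3 mice, had 65.8 CPM of Kcna5 and 60.4 of Kcnab1. Its 16 cells of 20GG95:3 had 1.90 CPM of Kcna5 and 1.43 of Kcnab1, below its cells of 20GG79:1 with 52.6 CPM of Kcna5 and 23.3 of Kcnab1 and of 20GG79:6 with 100.1 CPM of Kcna5 and 121.8 of Kcnab1. Cluster 18, 55 cells of 20GG95:3, had 82.4 CPM of Kcna5 and 49.3 of Kcnab1. Cluster 20, 31 cells of 20GG95:3 led by Chrdl1, had 1 count of Kcna5, which is 0.246 CPM, and 3.20 CPM of Kcnab1. Kcne4 differed less between them, at 456.5, 386.9 and 389.3 CPM in clusters 11, 18 and 20. Among the visceral clusters Kcnh2 lay between 181.3 and 311.1 CPM and Kcne4 between 175.5 and 255.8 CPM in 5 of the 6. The exception was cluster 19, 22 cells of 20GG95:3, with 27.3 CPM of Kcnh2 and 11.7 of Kcne4.

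Outside muscle and pericytes the 6 genes parted again. Kcna5 reached 131.7 CPM in blood endothelium of the PDGFRbGFP male with the most cells, where 53.2% of endothelial cells had a count, and 0 to 31.03 CPM in blood endothelium of 5 other mice. Its mean there, 32.6 ± 50.4 CPM (SD, n = 6 mice), was below its SD. Among sums of at least 5 cells, Kcna5 stayed under 5 CPM in the other classes outside the mural cells, and Kcnab1 did not exceed 4.89 CPM outside mural cells. Kcnh2 had 29.9 and 19.4 CPM in fibroblasts of 20GG79:1 and 20GG79:6, and 0 to 1.19 CPM in those of 3 mice with 5 fibroblasts each. Kcne4 had 51.8 and 40.04 CPM in fibroblasts of 20GG79:1 and 20GG79:6, and 1.19, 4.36 and 40.6 CPM in those of the other 3 mice. Kcnq1, which serves potassium recycling in epithelia, was highest in epithelium with 120.3 ± 83.04 CPM (SD, n = 3 mice) and in blood endothelium with 65.8 ± 35.4 CPM (SD, n = 6 mice). It averaged under 4 CPM in each other class. The epithelial values rest on 31, 6 and 6 cells. Kcnq5 was highest in pericytes with 11.5 ± 15.7 CPM (SD, n = 3 mice), below its SD.

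Other potassium channel genes were called by edgeR in vascular against visceral cells only. Of the 48 other voltage-gated genes on the list, 24 passed the filter on low counts and were tested. In vascular against visceral cells edgeR called 0 higher and 1 lower, beside 1.51% of all genes tested in either direction. The median log2 fold change of the 24 was -2.05, beside -0.43 over all genes tested. In that comparison 6 had an unadjusted p under 0.05 by edgeR and 4 were called by DESeq2, of 23 to which it gave an adjusted p. In vascular cells against pericytes edgeR called none of the 24, beside 0.104% of all genes tested. An unadjusted p under 0.05 was given to 3 of them by edgeR, and 1 was called by DESeq2. In pericytes against visceral cells edgeR called none, beside 1.14% of all genes tested. There 6 had an unadjusted p under 0.05 by edgeR. DESeq2 called 4, of 23 to which it gave an adjusted p. The shares DESeq2 called over all genes are given further below and were larger than those of edgeR. The gene called lower by edgeR was Kcns3, a silent subunit. It had 0.800 and 0.474 CPM in vascular cells of 20GG79:1 and 20GG95:3, against 142.98, 140.9 and 141.2 CPM in visceral cells of 20GG79:1, 20GG79:6 and 20GG95:3. Its log2 fold change was -8.44 ± 1.44 (edgeR, adjusted p = 0.0312). Pericytes averaged 6.43 ± 8.20 CPM of Kcns3 (SD, n = 3 mice) and missed the threshold against visceral cells at -5.27 ± 1.01 (edgeR, adjusted p = 0.0561). Of the 41 other potassium channel genes, 17 were tested, and Kcnt1, a sodium-activated potassium channel, was called higher in vascular than in visceral cells at 10.04 ± 1.64 (edgeR, adjusted p = 0.0287). It had 36.4 and 99.2 CPM in vascular cells of 20GG79:1 and 20GG95:3, against 0.0410, 0.1003 and 0.112 CPM in visceral cells of 20GG79:1, 20GG79:6 and 20GG95:3. Pericytes averaged 49.7 ± 46.4 CPM of Kcnt1 (SD, n = 3 mice), and their log2 fold change over visceral cells, 8.73 ± 1.603, missed the threshold (edgeR, adjusted p = 0.0506).

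On the list of other potassium channels edgeR called 1 gene in vascular against visceral cells, 0 in vascular cells against pericytes and 0 in pericytes against visceral cells. At an unadjusted p under 0.05 these were 4, 3 and 5 genes, and DESeq2 called 2, 3 and 5. Over all genes tested edgeR called 1.51%, 0.104% and 1.14% in the same order of comparisons. Further channels were common but not called by edgeR, and are named here after their values were seen. Kcnj8, the pore of the ATP-sensitive channel, averaged 105.1 ± 61.4 CPM in vascular cells (SD, n = 2 mice), 1015 ± 323.6 in pericytes and 222.2 ± 104.3 in visceral cells (SD, n = 3 mice each). Kcnma1, the pore of the large-conductance calcium-activated channel, averaged 32.5 ± 44.9 CPM in vascular cells, 1.13 ± 0.812 in pericytes and 139.9 ± 42.4 in visceral cells.

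**Figure D5:**
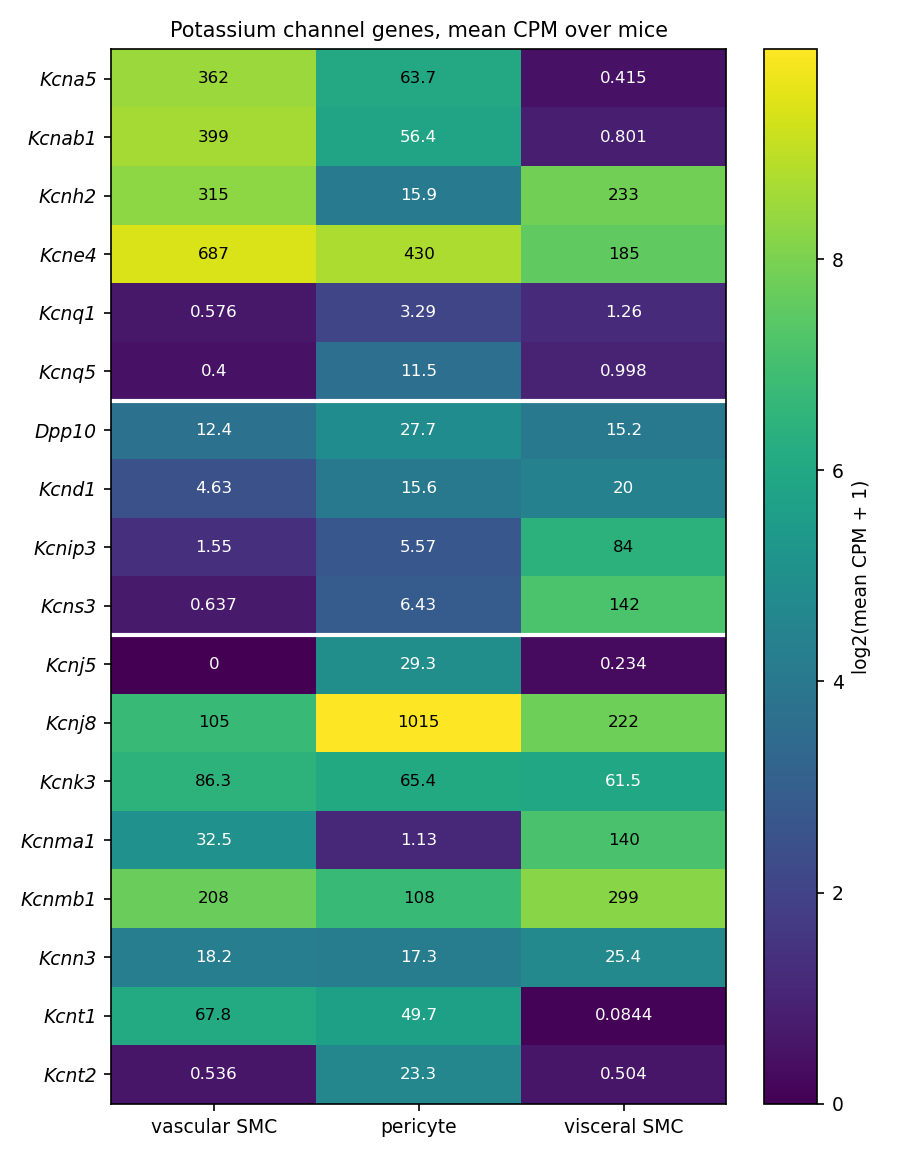
Mean CPM over mice, printed in each field and shown as log2(mean CPM + 1) by colour, of the 6 genes (top), and of some other voltage-gated genes (middle) and other potassium channel genes (bottom) that had at least 20 CPM in 1 or more of the classes, in vascular cells, pericytes and visceral cells from left to right. Kcns3 stands at 0.637 CPM in vascular cells and 141.7 CPM in visceral cells, and Kcna5 at 361.6 CPM in vascular cells and 0.415 CPM in visceral cells.

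Genes with a similar pattern were ranked by Pearson's r of log2(CPM + 1) over the means of 9 classes. The rank covered 8212 genes with at least 50 CPM in a class that were not used for clustering. Markers and the variable genes used for clustering could therefore not appear, and the genes named are the first among the rest. For Kcna5 they were Grip2 (r = 0.96), Ddit4l (r = 0.95) and Rergl (r = 0.95). For Kcnab1 they were Scn4b (r = 0.98), a sodium channel beta subunit, Gm44596 (r = 0.98) and Tesc (r = 0.98). For Kcnh2 they were Cdh6 (r = 0.98), Itga8 (r = 0.97) and Vit (r = 0.96), and for Kcne4 Tsix, Sox5 and Podxl2 (r = 0.99 each). Tsix is antisense to the X-linked Xist and was highest in pericytes, with a mean of 142.7 CPM. The classes differ in their share of female cells, and the part of sex in this rank was not tested. For Kcnq1 they were Cutal (r = 0.98), Hoxb9 (r = 0.98) and Ido1 (r = 0.97), and for Kcnq5 Atp7a (r = 0.91), Bmper (r = 0.88) and Prdm2 (r = 0.88). These correlations describe 9 points that share mice and plates and carry no p.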

How the data were processed

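Values are raw read counts as deposited, not normalized by the authors, for Ensembl genes and 92 spike-ins in each cell. Per the submitters' processing notes the tools were bcl2fastq, Bowtie, Bowtie2, featureCounts and Subread, and the builds GRCm38 and mm10, without roles or versions. The shallowest cell had 45388 gene counts, the median cell 194180 and the deepest 1046988, which limits what can be seen of genes near the floor. No cell fell under 20000 gene counts or 1000 genes. No doublet caller was run.

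The 6 genes, the markers, the lists, the comparisons and the tests were chosen with earlier results of these data known. CPM were computed over all rows but spike-ins. Cells were clustered on 2073 genes, 73 markers and 2000 variable genes off all lists, taken as log2(CPM + 1), with 20 principal components, 15 neighbours and Leiden resolution 1 (scanpy 1.11.5, igraph 0.11.9). The 21 clusters took the class with the highest mean marker difference. Smart-Seq2 reads cover the transcript, so CPM favour long genes.

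Counts were summed per mouse and class with at least 5 cells, which gave 8 sums and left 3 residual degrees of freedom. Sums of 1 mouse come from the same animal, so the mouse was a block. They were tested with edgeR 4.0.16 (TMM, filterByExpr, robust quasi-likelihood test) under R 4.3.3 and adjusted by Benjamini-Hochberg over the 15400 genes not used for clustering. Because the classes were made from these cells, a call does not show that a class exists. The SE is the size of the log2 fold change over the square root of F. Cells of a mouse are technical members of 1 replicate. The test was also run on simulated sums that held no mouse effect and changed only genes with high counts. Those sums cannot speak for the block or for genes near the floor, and their outcome is not reported here. Besides the 6 genes, genes of the channel lists were named where called, given a mean of 20 CPM or more in their higher class; exceptions are marked. Alternatives were RLE scaling, no filter, DESeq2 1.42.0, a fit of 2 classes, no block, resolution 0.5, only cells with 100000 gene counts or more, only cells without markers of another class, adjustment over all genes, and leaving out each mouse or plate. Some genes of the channel lists are not reported here by name.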

Additional observations from a re-analysis of the deposited data

Results flagged for a closer look

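In blood endothelium, the PDGFRbGFP male with the most cells stood apart with 131.7 CPM of Kcna5, beside 0 to 31.03 CPM in the 5 other mice with that class. In the same class 20GG79:6 stood apart with 136.5 CPM of Kcnq1, beside 42.5 to 61.8 CPM, and with 1.72 CPM of Kcnh2. In lymphatic endothelium the same PDGFRbGFP male stood apart with 0.0685 CPM of Kcnh2, a single count, and 0.343 CPM of Kcnq5, where the 3 other mice had 0. These were the mice whose distance to the nearest other mouse took up an unusual part of the range of their class. Of 18 pairs of gene and class with 4 to 10 mice 5 were picked out. The rule picks out about 1 in 20 for normally distributed values, which CPM with many values of 0 are not. Where all other mice are at 0, a single count is enough. The 5 can therefore not be set against that rate. Another male of the PDGFRbGFP line, 19CB4:5, had 5.28 CPM of Kcna5 in blood endothelium.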

How the results depend on the processing

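Of the tests of the 6 genes, the calls of Kcna5 and Kcnab1 in vascular over visceral cells (log2 fold changes 9.94 to 11.28 and 9.16 to 11.55), of Kcna5 in pericytes over visceral cells (6.41 to 7.98) and of Kcnh2 in pericytes against visceral cells (-6.25 to -3.83) held under all 16 alternatives. Over all alternatives 13 values lost a call, 4 gained it and 6 turned sign, and the rest kept both. The cause of these changes was not tested. Without clusters of 1 mouse and without pericytes with vascular markers are alternatives chosen after seeing the data. RLE scaling moved the median log2 fold change of all genes by 0.15 for vascular over visceral cells and 0.11 for pericytes over visceral cells, and turned no sign among the 6 genes. Genes near the floor, Kcnq1 and Kcnq5, are limited by depth.

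The share of tested genes called for vascular over visceral cells, 1.51% as reported, was 1.46% without the filter on low counts, of the 29555 genes then tested. It was 11.4% with DESeq2, 4.06% in a fit of the 2 classes alone, 2.68% with all genes adjusted together, 0.928% without clusters of 1 mouse, 1.04% without plate colon_506s, and 0.611 to 2.44% with a mouse left out. For vascular cells over pericytes, 0.104% as reported, it was 0.208% with RLE, where 21 were higher and 11 lower against 8 and 8, and 0.325% without the filter, 6.27% with DESeq2 and 0.282% with all genes adjusted together. It was 0.0202% without clusters of 1 mouse, 0.0711% without plate colon_053s, 0.0424% without plate colon_506s, 0.262% without pericytes with vascular markers, and 0.00576 to 0.681% with a mouse left out. For pericytes over visceral cells, 1.14% as reported, it was 1.25% without the filter, 9.35% with DESeq2, 2.17% with all genes adjusted together, and 0.599 to 2.23% with a mouse left out.

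Voltage-gated genes called for vascular over visceral cells numbered 4 as reported, 7 with DESeq2, 2 without plate colon_053s and 2 to 3 with a mouse left out. For vascular cells over pericytes they numbered 2 as reported, 4 with DESeq2, 0 without clusters of 1 mouse, 1 without plate colon_053s, 1 without plate colon_506s and 0 to 2 with a mouse left out. For pericytes over visceral cells they numbered 3 as reported, 5 without the filter and 7 with DESeq2.

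Kcne4 in vascular over visceral cells lost its call with each mouse left out (1.76 to 1.97), without clusters of 1 mouse (1.795) and without plate colon_053s (1.45). Kcna5 in vascular cells over pericytes gained a call with RLE (3.31), without the filter (3.28), with DESeq2 (3.31) and with all genes adjusted together (3.27). Kcnab1 in vascular cells over pericytes lost its call without 20GG79:1 (4.27 to 4.38 with a mouse left out), without clusters of 1 mouse (5.45), without plate colon_053s (3.69) and without plate colon_506s (5.95). Kcnh2 in vascular cells over pericytes lost it without 20GG79:1 (4.95 to 5.23 with a mouse left out) and without clusters of 1 mouse (5.78). Kcnab1 in pericytes over visceral cells lost it without pericytes with vascular markers (3.57). Kcnq1 in vascular over visceral cells turned to -5.10 without plate colon_053s and ran from -6.61 to 2.15 with a mouse left out, while Kcnq5 ran from -7.81 to 0.57. With a mouse left out, Kcnq1 ran from -8.51 to 2.55 in vascular cells over pericytes and from -0.40 to 1.91 in pericytes over visceral cells.

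Without the mouse as the replicate block, the share of genes called for vascular cells over pericytes was 0.0649%, with 1 voltage-gated gene, Kcnab1 in that comparison fell short at 2.97, and Kcnq1 in vascular over visceral cells turned to -0.72. Leaving out the block changed no other call of the 6 genes. With 20GG79:1 or 20GG95:3 left out, the vascular class had 1 sum, assumed to vary like the other classes.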
